A study of Mus musculus with 10 samples.

Results

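The neuropeptide genes described here are Tac1, Ucn3, Iapp, Gal, Nmb, Penk, Calca, Calcb, Npy and Cartpt, 10 of the 54532 genes in the deposited count table. They were picked by name, as precursors of peptides that the gut makes beside its classic hormones, with no threshold on a measured value but with earlier results of these data known. RNA was sequenced from epithelium of the small intestine of 5 Gucy2c-GFP mice from matched litters, of the CD1/ICR stock and 10 weeks old. Every mouse carried the same transgene, in which the Gucy2c promoter drives GFP, and cells were sorted live by fluorescence into GUCY2Chi cells (high GFP) and GUCY2Cmed cells (medium GFP, the bulk of the epithelium). Each mouse gave 1 library of 20000 cells per group, 10 libraries in all, and no mouse was treated. The mice are called by the numbers in the sample labels, 2, 7, 12, 14 and 15. The GUCY2C that defines the groups was read through GFP, and each library pools every cell type in its gate.

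Neuropeptides are made as larger precursors, packed into secretory granules, trimmed by prohormone convertases and often amidated before release. In the gut they come from enteroendocrine cells, from enteric neurons and from the endings of sensory neurons, and they act on motility, secretion, blood flow and pain. The same precursor genes are widely used in the brain, where Penk, Npy and Tac1 are abundant in forebrain neurons.

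The libraries held between 10903958 and 15307932 counts on genes. Of the 15703 genes with more than 0.5 cpm (counts scaled to library size) in at least 3 libraries, edgeR's quasi-likelihood test at a Benjamini-Hochberg adjusted p under 0.01 called 2186 higher and 1381 lower in GUCY2Chi cells (2910 and 557 with library size alone in place of TMM factors). The sort held in the RNA. Gucy2c itself had 1322 ± 526 cpm in GUCY2Chi cells and 404 ± 64.7 cpm in GUCY2Cmed cells (SD, n = 5 for each), and was higher by 1.71 on the log2 scale (SE 0.32, edgeR adjusted p = 0.00187). All 7 enteroendocrine marker genes were higher, and their summed level was 4427 to 57060 cpm in GUCY2Chi libraries against 69.3 to 139 cpm in GUCY2Cmed libraries. Libraries also stood apart within groups. The summed level of 7 enterocyte genes in GUCY2Chi cells was 45.5% and 44.5% of that in GUCY2Cmed cells for mice 12 and 15, and 4.91% to 5.54% for the other mice. Genes of forebrain neurons were read in both groups, at 12.7 to 1183 cpm summed over 10 genes, and neither sorted group should hold such cells. In bulk samples, fewer cells of a type and less RNA per cell cannot be told apart.

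Of the 10 neuropeptide genes, 9 passed the filter on low counts, and Calca did not. Tac1, Cartpt, Penk and Npy passed it by their GUCY2Cmed libraries alone, whereas Ucn3, Iapp, Gal, Nmb and Calcb reached 3 libraries only with those of GUCY2Chi cells, the group where they were high. Tac1, Ucn3, Iapp, Cartpt and Gal rose in GUCY2Chi cells, 5 of the 9 tested, against 13.9% of all genes tested. None fell, against 8.79% of all genes, and none was lower at an unadjusted p under 0.05 or with DESeq2 or limma-voom. The same 5 genes were higher without overlap between the groups, as were 16.7% of all genes, and none was lower without overlap, as were 13.2%. Of the 4 genes that passed by GUCY2Cmed libraries alone, 2 rose (10.6% of all such genes), and of the 5 that needed GUCY2Chi libraries, 3 rose (34.7% of all such genes), so the count over all 9 was in part set by the filter and is given as a description. Penk and Npy, at similar mean levels in both groups, and the sparsely counted Nmb, Calcb and Calca did not pass. The 10 genes together took 0.0477% to 0.287% of the counts in GUCY2Chi libraries and 0.00103% to 0.00297% in GUCY2Cmed libraries, and Tac1 gave 57.8% to 78.0% of the former.

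**Figure D1:**
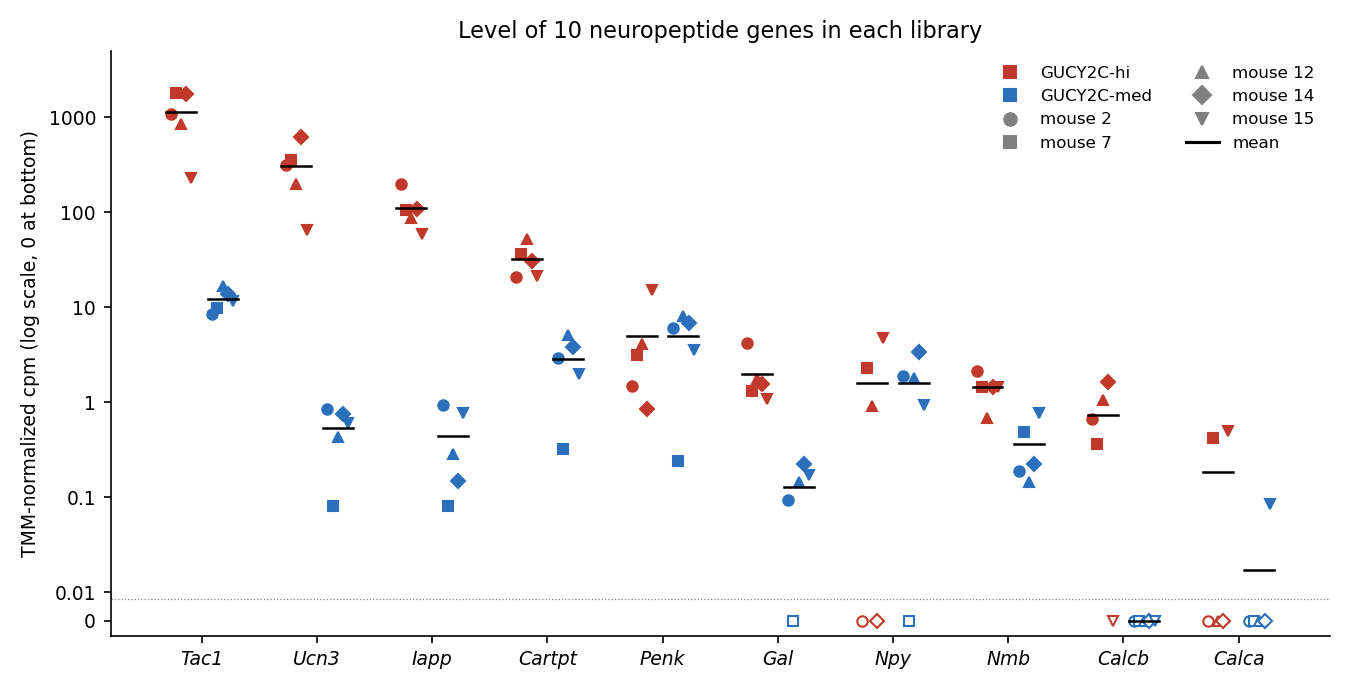
Level of each neuropeptide gene in each library, in TMM-normalized cpm on a log axis with 0 drawn at the bottom as open symbols; red is GUCY2Chi, blue is GUCY2Cmed, the shape marks the mouse and the bar is the mean of 5 libraries. Tac1, Ucn3, Iapp, Cartpt and Gal do not overlap between the groups, whereas the means of Penk (4.95 cpm in each group) and Npy (1.60 cpm in each group) lie level.

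Levels of different genes can be compared only per length, so TMM-normalized cpm were divided by the gene length in kilobases given in the table. In GUCY2Chi cells the order was Tac1 at 334 ± 191 cpm per kb (SD, n = 5), Ucn3 at 209 ± 137, Iapp at 114 ± 52.8 and Cartpt at 25.4 ± 10.2. Then came Penk at 3.03 ± 3.59, Npy at 2.82 ± 3.56, Gal at 2.77 ± 1.76, Nmb at 1.81 ± 0.656, Calcb at 0.588 ± 0.496 and Calca at 0.110 ± 0.151 cpm per kb. Tac1 stood above Ucn3 in 5 of 5 mice, Ucn3 above Iapp in 4 of 5, and Iapp above Cartpt in 5 of 5. Penk, Npy and Gal did not differ beyond their spread. Among the 15703 tested genes, Tac1 was number 151 by level per length in GUCY2Chi cells, Ucn3 number 239, Iapp number 473 and Cartpt number 1965. In GUCY2Cmed cells the order was another one, with Tac1 at 3.56 ± 0.975, Penk at 3.03 ± 1.91, Npy at 2.83 ± 2.21 and Cartpt at 2.21 ± 1.43 cpm per kb, all within their spread, and Iapp (0.457 ± 0.395), Nmb (0.456 ± 0.332), Ucn3 (0.366 ± 0.204) and Gal (0.178 ± 0.120) below them. The deposited FPKM use other lengths. By FPKM the mean within-library ratio of Tac1 to Ucn3 in GUCY2Chi cells was 5.32, where cpm per kb gave 1.66. The ratio of Ucn3 to Iapp was 1.07 in place of 1.84, with Ucn3 above Iapp in 2 of 5 mice, so the order of these 2 genes depends on the lengths used.

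Tac1 (ENSMUSG00000061762, GRCm38 chr6:7554879-7565834, plus strand) encodes the precursor of substance P and neurokinin A, tachykinins that excite enteric and sensory neurons and contract smooth muscle. Its level was 1081, 1782, 851, 1735 and 231 cpm in the GUCY2Chi libraries of mice 2, 7, 12, 14 and 15. In the GUCY2Cmed libraries of the same mice it was 8.52, 9.71, 16.8, 13.9 and 11.6 cpm. The lowest GUCY2Chi library, that of mouse 15, was well above the highest GUCY2Cmed library. The means were 1136 ± 648 and 12.1 ± 3.31 cpm (SD, n = 5), a difference of 6.55 on the log2 scale (SE 0.56, edgeR adjusted p = 1.60e-05). Within a mouse the ratio of the groups ran from 20.02 in mouse 15 to 184.

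Ucn3 (ENSMUSG00000044988, GRCm38 chr13:3940688-3945349, minus strand) encodes urocortin 3, a peptide of the corticotropin-releasing factor family known from pancreatic islets and the hypothalamus. It was read at 315, 352, 200, 611 and 65.3 cpm in GUCY2Chi cells of mice 2, 7, 12, 14 and 15. In GUCY2Cmed cells the 5 libraries held 1 to 10 counts each, or 0.0803 to 0.843 cpm. It had the highest fold change of the 5 genes that rose, a log2 value of 9.15 (SE 0.73, edgeR adjusted p = 9.20e-06), from means of 309 ± 203 and 0.541 ± 0.301 cpm (SD, n = 5). The within-mouse ratio was 109 in mouse 15 and at most 4381, in mouse 7, where the GUCY2Cmed library held 1 count.

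Iapp (ENSMUSG00000041681, GRCm38 chr6:142298423-142303961, plus strand) encodes islet amyloid polypeptide, or amylin, which pancreatic beta cells release with insulin and which slows gastric emptying. GUCY2Chi libraries of mice 2, 7, 12, 14 and 15 had 196, 107, 86.0, 108 and 59.6 cpm, and those of GUCY2Cmed cells 0.936, 0.0803, 0.288, 0.150 and 0.770 cpm. The groups stood far apart, and the GUCY2Chi libraries spread less for Iapp (3.29-fold from lowest to highest) than for Tac1 (7.70-fold) or Ucn3 (9.36-fold). The means were 111 ± 51.4 and 0.445 ± 0.385 cpm (SD, n = 5), 7.99 apart on the log2 scale (SE 0.58, edgeR adjusted p = 5.20e-06). The insulin genes of the beta cell were nearly absent, with at most 2 counts of Ins1 and at most 3 of Ins2 in any library, and the summed level of 4 beta cell genes was 0.441 to 3.36 cpm in GUCY2Chi libraries and 0 to 0.150 cpm in GUCY2Cmed libraries. Most of it came from G6pc2, an islet glucose phosphatase, with 6 to 50 counts in GUCY2Chi libraries and none in the others.

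Among GUCY2Chi libraries, Tac1, Ucn3 and Iapp were lowest in that of mouse 15. So were the sparsely counted Gal (1.07 cpm) and Calcb (0 counts). That library also had the lowest enteroendocrine marker sum of its group (4427 cpm, the others 21321 to 57055), the highest enterocyte sum (25680 cpm) and the highest forebrain neuron sum (1183 cpm). The part of this library's composition in the spread of these genes was not tested. Without mice 12 and 15, whose GUCY2Chi libraries held the most enterocyte RNA, the log2 fold changes were 7.16 for Tac1, 9.57 for Ucn3 and 8.52 for Iapp, and all 3 still passed.

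Cartpt (ENSMUSG00000021647, GRCm38 chr13:99898489-99901091, minus strand) encodes the CART peptides, which lower food intake and are made in hypothalamus, in enteric neurons and in some endocrine cells. Its GUCY2Chi levels in mice 2, 7, 12, 14 and 15 were 20.8, 36.5, 52.5, 31.0 and 21.3 cpm, and its GUCY2Cmed levels 2.90, 0.321, 5.11, 3.83 and 1.97 cpm. No GUCY2Cmed library reached the lowest GUCY2Chi library, although the ratio within a mouse ran only from 7.16 to 114. From means of 32.4 ± 13.1 and 2.83 ± 1.82 cpm (SD, n = 5), Cartpt rose by 3.51 on the log2 scale (SE 0.54, edgeR adjusted p = 6.98e-04). Unlike the 3 genes above, Cartpt was highest in the GUCY2Chi library of mouse 12. The hypothalamic markers Agrp, Hcrt, Pmch and Avp summed to at most 0.945 cpm in any library, and Oxt had no count.

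Gal (ENSMUSG00000024907, GRCm38 chr19:3409919-3414472, minus strand) encodes galanin, an inhibitory peptide of enteric neurons that changes motility and secretion. It was rare, with 62, 22, 23, 20 and 17 counts in the GUCY2Chi libraries of mice 2, 7, 12, 14 and 15 and 1, 0, 2, 3 and 2 counts in GUCY2Cmed libraries. Every GUCY2Chi library nonetheless held more than any GUCY2Cmed library. The means were 1.97 ± 1.25 and 0.127 ± 0.0854 cpm (SD, n = 5), and Gal rose by 3.85 on the log2 scale (SE 0.65, edgeR adjusted p = 0.00118). The ratio of the pooled counts, scaled for depth, was 15.2, with an exact 95% interval of 7.50 to 35.8 that covers counting error only. Without mice 12 and 15 its adjusted p was 0.0117, past the threshold no longer, at a log2 fold change of 4.32.

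Nmb (ENSMUSG00000025723, GRCm38 chr7:80902227-80905076, minus strand) encodes neuromedin B, a bombesin-like peptide that contracts smooth muscle and promotes exocrine and endocrine secretion. It had 9 to 32 counts in GUCY2Chi libraries (0.681 to 2.15 cpm) and 2 to 9 counts in GUCY2Cmed libraries (0.144 to 0.770 cpm). The groups overlapped by 1 pair of libraries, GUCY2Chi of mouse 12 and GUCY2Cmed of mouse 15, although within every mouse the GUCY2Chi library was higher, by 1.88 to 11.5 times. The fitted log2 difference was 1.97 (SE 0.53) and its edgeR adjusted p 0.0129, which missed the threshold. Of 19 alternatives, 5 called it higher, among them DESeq2 (adjusted p = 0.00197), limma-voom (adjusted p = 0.00998), library size without TMM (adjusted p = 0.00649) and the fit without the GUCY2Cmed library of mouse 15 (adjusted p = 0.00733).

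Calca (ENSMUSG00000030669, GRCm38 chr7:114631478-114636357, minus strand) and Calcb (ENSMUSG00000030666, GRCm38 chr7:114718643-114723365, plus strand) are neighbouring paralogs that encode calcitonin with alpha-CGRP and beta-CGRP, peptides best known as vasodilators released by sensory nerves. Their sequences are alike, so that reads may have been split between them and each count is uncertain. Calcb had 10, 6, 14, 21 and 0 counts in the GUCY2Chi libraries of mice 2, 7, 12, 14 and 15, and 0 in all GUCY2Cmed libraries. Against a floor of 3 counts over the group, it was at least 15.4-fold higher in GUCY2Chi cells, but with an adjusted p of 0.0160 from edgeR it did not pass. It passed with DESeq2 (adjusted p = 0.00122) and without the GUCY2Chi library of mouse 15 (adjusted p = 0.00282), and without the GUCY2Chi library of mouse 2, 12 or 14 it fell below the filter. Calca had 7 and 8 counts in the GUCY2Chi libraries of mice 7 and 15, 1 count in the GUCY2Cmed library of mouse 15 and none in the others. An exact two-sided permutation test over the 10 libraries gave p = 0.444 for Calca. Where Calcb was absent, in GUCY2Chi cells of mouse 15, Calca had its 8 counts, and where Calca was absent from GUCY2Chi cells, in mice 2, 12 and 14, Calcb had 10 to 21. The sensory neuron markers Scn10a, Prdm12 and Mrgprd had no count in any library.

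Penk (ENSMUSG00000045573, GRCm38 chr4:4133531-4138819, minus strand) encodes proenkephalin, the source of the enkephalins, opioid peptides of enteric neurons and of the striatum. Its levels were 1.48, 3.14, 4.09, 0.848 and 15.2 cpm in GUCY2Chi libraries of mice 2, 7, 12, 14 and 15 and 6.09, 0.241, 8.07, 6.83 and 3.51 cpm in GUCY2Cmed libraries. It was higher in GUCY2Chi cells of mice 7 and 15 and lower in those of mice 2, 12 and 14, by ratios from 0.124 to 13.02. The means were 4.95 ± 5.86 and 4.95 ± 3.11 cpm (SD, n = 5), and the log2 fold change of 0.00 had an SE of 0.83 (edgeR adjusted p = 0.999). An error of that size leaves room for a change in either direction.

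Npy (ENSMUSG00000029819, GRCm38 chr6:49822710-49829507, plus strand) encodes neuropeptide Y, a peptide of sympathetic and enteric neurons and of forebrain interneurons that reduces secretion and stimulates feeding. It had no count in the GUCY2Chi libraries of mice 2 and 14 or in the GUCY2Cmed library of mouse 7. The other libraries had 2.29, 0.908 and 4.79 cpm in GUCY2Chi cells of mice 7, 12 and 15, and 1.87, 1.80, 3.38 and 0.941 cpm in GUCY2Cmed cells of mice 2, 12, 14 and 15. The means, 1.60 ± 2.01 and 1.60 ± 1.25 cpm (SD, n = 5), lay level, and the log2 fold change of 0.01 had an SE of 1.17 (edgeR adjusted p = 0.998). A count of 0 in a library allows up to 3 counts.

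Penk and Npy followed the forebrain neuron genes from library to library. These 10 genes, among them Nrgn, Camk2a and Slc17a7, summed to 32.5, 403, 370, 32.7 and 1183 cpm in GUCY2Chi libraries of mice 2, 7, 12, 14 and 15 and to 502, 12.7, 661, 490 and 237 cpm in GUCY2Cmed libraries. All 10 were tested, none was called, none was at 0 throughout, and their median log2 fold change was 0.11. The 3 libraries without Npy were the 3 lowest in forebrain genes, and the library highest in Penk and in Npy, GUCY2Chi of mouse 15, was the highest in them. Penk levels differed 63.0-fold between the lowest and highest of the 10 libraries, but per 1000 cpm of forebrain genes they were 7.78 to 45.5 cpm, a 5.86-fold spread. Within GUCY2Cmed cells the spread shrank from 33.5-fold to 1.57-fold, at 12.1 to 19.0 cpm of Penk per 1000 cpm. The 2 highest ratios, 45.5 and 25.9, were those of GUCY2Chi cells of mice 2 and 14, from 22 and 11 counts of Penk. GUCY2Cmed cells of mouse 7, with the lowest forebrain sum and 3 counts of Penk, had a ratio of 19.0. The source of the higher ratios in mice 2 and 14 was not tested. Npy had 2.45 to 6.90 cpm per 1000 cpm in the 7 libraries with counts, a 2.81-fold spread. Its level in the same 7 libraries spread 5.27-fold, so the ratio narrowed the spread of Npy less than that of Penk. Within GUCY2Cmed cells the spread of Npy went from 3.59-fold to 2.53-fold.

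Cartpt was level with them in GUCY2Cmed cells. The 4 GUCY2Cmed libraries with at least 10 counts of it had 5.78 to 8.32 cpm per 1000 cpm of forebrain genes, and that of mouse 7, with 4 counts, had 25.3. In GUCY2Chi cells the same ratio ran from 18.05 in mouse 15 to 948 in mouse 14, above those 4 in every mouse. For Tac1 the ratio spread 3130-fold over the 10 libraries, wider than its level, which spread 209-fold. With the mean log2 level of the 10 forebrain genes as a covariate, the log2 fold change was 0.06 for Penk (adjusted p = 0.895), -0.39 for Npy (adjusted p = 0.560) and 3.81 for Cartpt (adjusted p = 1.44e-04 from edgeR). Tac1, Ucn3, Iapp and Gal kept their calls, and Nmb passed with an adjusted p of 0.00729. The part of forebrain RNA in the counts of Penk, Npy and Cartpt was not tested further. Grp, a bombesin-like precursor chosen here after its values were seen, had 6.21 to 12.7 cpm per 1000 cpm in the 9 libraries with counts.

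**Figure D2:**
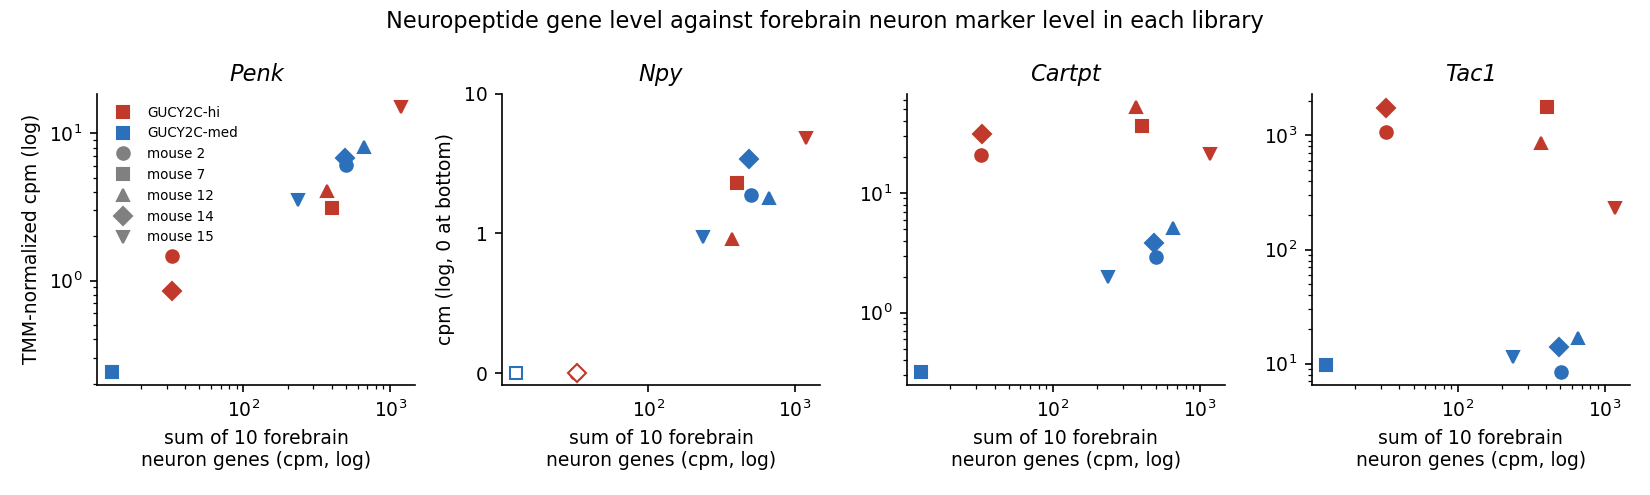
Level of Penk, Npy, Cartpt and Tac1 in each library against the summed level of 10 forebrain neuron genes, both in TMM-normalized cpm on log axes; red is GUCY2Chi, blue is GUCY2Cmed, the shape marks the mouse, and open symbols at the bottom of the Npy panel are libraries with 0 counts, those of GUCY2Chi mice 2 and 14 lying on top of each other. Penk rises with the forebrain sum in both groups, with GUCY2Chi mice 2 and 14 high for their sums (45.5 and 25.9 cpm per 1000 cpm). Npy rises with it too, but has counts in only 7 libraries. Cartpt rises with it among GUCY2Cmed libraries, where mouse 7 is high for its sum. Tac1 falls into separate groups at any forebrain level.

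Genes of further cell types that make these peptides were read at differing levels. The enteric neuron list summed to 26.3 to 76.9 cpm in GUCY2Chi libraries and 0.401 to 4.49 cpm in GUCY2Cmed libraries. Of it Ret, which endocrine cells can also use, gave 48.8 cpm of the former on average and was called higher. Prph (144 counts in GUCY2Chi libraries against 16) and Chat (43 against 0) were not called. Nos1 had 147 counts against 121, and Hand2 was at 0 throughout. The 7 T and innate lymphoid genes summed to 6.33 to 42.0 and 7.12 to 34.9 cpm. Of the 3 enterochromaffin genes Tph1, Slc18a1 and Lmx1a, markers of the serotonin-making enteroendocrine cells in which Tac1 is known to be made, all were higher in GUCY2Chi cells, and their sum was 1198 to 5050 cpm against 19.4 to 29.3 cpm. Its lowest GUCY2Chi library was again that of mouse 15, as for the sum of the 7 enteroendocrine genes. The enterochromaffin sum was highest in mouse 14, whereas Tac1 was highest in mouse 7. Tuft cell genes (9.02 to 36.8 and 3.53 to 21.2 cpm) and goblet cell genes (1265 to 10080 and 1827 to 4928 cpm) overlapped between the groups, and none of either list was called. Of 9 striatal and interneuron genes 8 were tested and 2 called higher, Adora2a and Lhx6, against 13.9% of all genes tested. The 9 genes had sums of 9.95 to 24.5 and 0.482 to 8.43 cpm.

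Most other fits called the same genes. With the mouse as a replicate block in edgeR, which calls 8.24% of all genes higher, the same 5 genes passed, with adjusted p from 2.59e-04 for Iapp to 0.00902 for Gal. The log2 fold changes then were 8.96 for Ucn3, 8.02 for Iapp, 6.32 for Tac1, 3.66 for Cartpt and 3.79 for Gal. All 5 also passed in each of the 10 fits that left out 1 library. DESeq2, which calls 18.8% of all genes higher, added Nmb and Calcb, and limma-voom, which calls 13.6%, added Nmb. With at least 10 counts required in every library, Tac1 was the 1 gene left to test, and it passed.

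**Figure D3:**
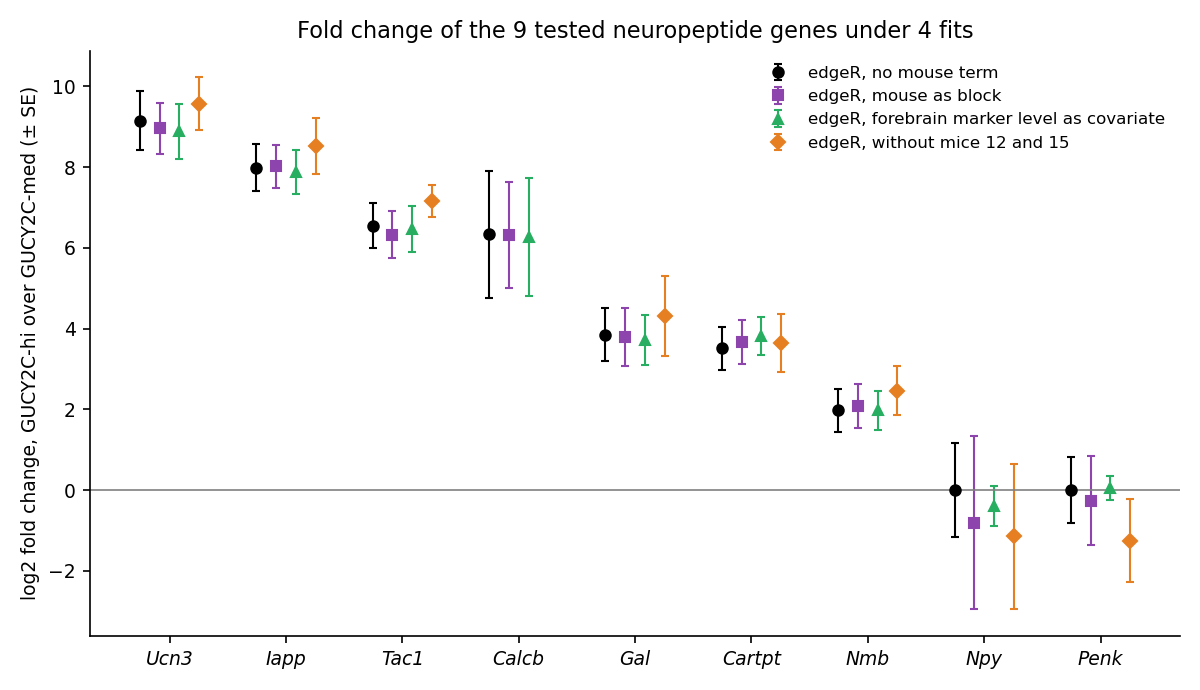
Fitted log2 fold change of the 9 tested neuropeptide genes, GUCY2Chi over GUCY2Cmed, with its standard error, from 4 edgeR fits: without a mouse term, with the mouse as a block, with the forebrain marker level as a covariate, and without mice 12 and 15. Ucn3, Iapp and Tac1 lie between 6.32 and 9.57 in all 4 fits and Penk and Npy lie at or below 0.06; Calcb, at 0 in all GUCY2Cmed libraries, has a fitted value that is no bound and none without mice 12 and 15.

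For each gene that rose, genes with the most similar profiles over the 10 libraries were sought, by the root mean square difference of their centred log2 cpm among 9667 tested genes of at least 5 cpm. Tac1 was closest to Fam43a (0.338), to Abcc8, a subunit of the ATP-sensitive potassium channel (0.366), and to Slc38a11 (0.368). Ucn3 was closest to the granule protein gene Chga (0.399), to Asic5, an ion channel (0.437), and to the somatostatin receptor gene Sstr5 (0.443). Iapp lay near Ffar1, a receptor for fatty acids (0.390), and Gpr119, a receptor for lipid amides (0.424). Gal was nearest to Tpd52l1 (0.2995), Pomgnt2 (0.316) and Slc25a29 (0.342), whose log2 fold changes were 1.77, 2.02 and 2.11 against its 3.85. The neighbours of Tac1 had values of 7.98 to 8.36 against its 6.55, and Ffar1 and Gpr119 9.81 and 10.01 against 7.99 for Iapp. Those of Ucn3, 8.57 to 9.80, lay around its 9.15. The measure adds 0.5 cpm before the logarithm, which draws levels near 0 together. So a near profile of Gal is not a like change, and the same limit holds for Ucn3 and Iapp, near 0.5 cpm in GUCY2Cmed cells. Nor is a near profile of Tac1 a like change, with neighbours at 7.98 to 8.36 against its 6.55. Cartpt was nearest to Shisa9 (0.311), Rtn2 (0.362) and Gdap1l1 (0.410), with log2 fold changes of 3.80, 3.70 and 3.32 against its 3.51. Profiles of Tac1, Ucn3 and Iapp were closer to each other (0.840 to 0.956) than to that of Cartpt (1.65 to 2.41), which differed from theirs by its smaller fold change.

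Promoter sequences are shown so that the starts of these genes can be compared. They were searched for TGACG on either strand, the core of the cyclic AMP response element, because cyclic AMP is a classic inducer of neuropeptide genes. RefSeq sequences of GRCm38.p6, from 250 bases before to 50 bases after the start, were at hand for 8 of the 10 genes. TGACG stood in 4 of the 8, Tac1, Cartpt, Calca and Gal, against 20.8% of 32851 promoters. The E-box CANNTG stood in 5 of the 8, against 72.3%, and TATAAA on the given strand in 0 of the 8, against 8.32%. Of the 5 genes that rose, Tac1 and Cartpt had TGACG before the RefSeq start, Gal had it after that start, and Ucn3 and Iapp had none. These starts are not all the gene ends of the positions given above. By those positions the Cartpt window and the Tac1 match at -43 lie inside the gene. The whole Gal window then lies before the gene, so before and after hold for the RefSeq start only. The promoters of the 2 genes with the highest level that differ in this, and of Cartpt, with the full palindrome, are given 5′ to 3′ on the strand of the gene, with TGACG or its reverse complement in capitals. The Tac1 window is chr6:7554811-7555110 (plus strand), that of Ucn3 chr13:3945300-3945599 (minus strand) and that of Cartpt chr13:99900634-99900933 (minus strand).
Tac1: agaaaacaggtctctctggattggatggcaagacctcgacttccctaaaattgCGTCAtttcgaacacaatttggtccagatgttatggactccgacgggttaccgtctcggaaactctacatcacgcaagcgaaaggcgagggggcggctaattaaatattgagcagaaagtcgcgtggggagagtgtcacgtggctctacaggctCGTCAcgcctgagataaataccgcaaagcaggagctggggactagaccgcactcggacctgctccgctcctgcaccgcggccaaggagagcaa
Ucn3: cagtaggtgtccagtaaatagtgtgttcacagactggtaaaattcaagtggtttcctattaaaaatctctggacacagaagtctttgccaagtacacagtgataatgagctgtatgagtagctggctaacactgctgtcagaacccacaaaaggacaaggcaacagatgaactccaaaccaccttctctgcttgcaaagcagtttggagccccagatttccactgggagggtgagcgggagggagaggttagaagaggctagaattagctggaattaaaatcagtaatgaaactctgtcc
Cartpt: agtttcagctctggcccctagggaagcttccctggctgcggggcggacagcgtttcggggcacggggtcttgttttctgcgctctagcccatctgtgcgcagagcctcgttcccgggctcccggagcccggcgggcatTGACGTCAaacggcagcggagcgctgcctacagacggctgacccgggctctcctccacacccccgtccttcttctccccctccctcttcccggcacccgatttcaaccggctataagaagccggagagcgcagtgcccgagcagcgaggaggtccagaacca
Counted from the RefSeq start, the matches of Tac1 began at -197 and -43, both on the other strand. In Cartpt a match on each strand overlapped in TGACGTCA, which began at -112, and in Ucn3 no capitals appear. A match is a run of letters and not a bound site, and binding was not measured.

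Genes of the same peptide families moved unevenly. Of 14 related precursors 8 were tested, 3 were higher and none lower, against 13.9% and 8.79% of all genes tested. Of the 3, Ppy and Pnoc passed the filter only with GUCY2Chi libraries, and 34.7% of all such genes were higher. Pyy, the gut member of the neuropeptide Y family and a classic ileal hormone, rose by 11.77 on the log2 scale (edgeR adjusted p = 2.13e-06) and had 4477 ± 1741 cpm per kb (SD, n = 5) in GUCY2Chi cells, where Npy had 2.82 ± 3.56. Ppy, pancreatic polypeptide of the same family, had 16 to 137 counts in GUCY2Chi libraries and 0 in the others, at least 119-fold higher. Pnoc, the precursor of the opioid-like nociceptin, rose by 4.14 (adjusted p = 0.00370), but missed with the mouse as a block in edgeR (adjusted p = 0.0133, and 0.00630 in limma-voom) and without the GUCY2Cmed library of mouse 14 or that of mouse 15. Ucn2 and Galp had no count.

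Receptors for these peptides were sparse. Of 23 receptor and accessory genes 11 were tested, 7 were higher and none lower, against 13.9% and 8.79% of all genes tested. Galr1, Galr2, Galr3, Grpr, Crhr2 and Ramp3, 6 of the 7, passed the filter only with GUCY2Chi libraries, so this count was largely set by the filter. In all, 8 receptor genes needed GUCY2Chi libraries to pass, and 34.7% of all such genes were higher. Of the 3 that passed by GUCY2Cmed libraries alone, 1 was higher, Npy1r (10.6% of all such genes). With the mouse as a block in edgeR 4 were higher, and in limma-voom 7. All 3 galanin receptors rose. Galr1 had 52.8 ± 20.3 cpm (SD, n = 5) in GUCY2Chi cells and 1 count in all GUCY2Cmed libraries together, a pooled ratio of 3250 with a counting interval of 583 to 128388 (edgeR adjusted p = 1.72e-06). Galr2 was at least 88.7-fold higher, with 20 to 100 counts against 0, and Galr3 rose by 4.48. Both missed with the mouse as a block in edgeR (adjusted p 0.0100 and 0.0169) and passed with it in limma-voom (4.64e-04 and 0.00700). Per length, the level of Galr1 in GUCY2Chi cells was 18.4 ± 7.08 cpm per kb (SD, n = 5) and that of its ligand gene Gal 2.77 ± 1.76.

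Grpr, which binds gastrin-releasing peptide, a relative of neuromedin B, was at least 178-fold higher (48 to 222 counts against 0). Nmbr, the receptor that prefers neuromedin B, had 6 counts in GUCY2Chi libraries and 3 in the others and was not tested. Crhr2, the receptor of urocortin 3, had 4 to 16 counts per GUCY2Chi library against 2 counts in all GUCY2Cmed libraries, a pooled ratio of 20.7 with a counting interval of 5.42 to 175. Its adjusted p was 0.00640, but 0.0160 with the mouse as a block in edgeR and 0.00597 in limma-voom. It missed without the GUCY2Cmed library of mouse 7, 12, 14 or 15 and fell below the filter without the GUCY2Chi library of mouse 2, 7 or 14. Npy1r, a receptor of neuropeptide Y and peptide YY, rose by 3.87 (adjusted p = 0.00127).

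The amylin and CGRP receptors pair a calcitonin-type receptor with a RAMP accessory protein. Ramp3 rose by 5.89 (adjusted p = 6.35e-04), and Ramp1, with 41.3 ± 13.9 and 22.2 ± 3.81 cpm (SD, n = 5), missed at a log2 difference of 0.90 (adjusted p = 0.0111), without overlap between the groups. The receptors they need were low. Calcr had no count, and Calcrl had 4 to 9 counts per GUCY2Chi library and 0 to 5 in the others, under the filter. The tachykinin receptors Tacr1, Tacr2 and Tacr3 were under the filter too, with 11, 0 and 2 counts over the GUCY2Chi libraries, and so were the opioid receptors Oprm1 and Oprd1, with 3 counts each.

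Enzymes that cut and finish the precursors were higher in part. All 7 were tested, 4 were higher and none lower, against 13.9% and 8.79% of all genes tested. Their median log2 fold change was 4.70. The 4 higher genes were Pcsk1, a prohormone convertase (6.67, adjusted p = 3.76e-06), Scg5, the chaperone of another convertase, PCSK2 (6.35, adjusted p = 7.83e-05), Cpe, the carboxypeptidase that trims the ends (6.03, adjusted p = 1.80e-04), and Pam, which amidates peptides (4.70, adjusted p = 2.91e-05). Cpe and Scg5 were the most abundant per length in GUCY2Chi cells, at 2132 ± 1155 and 911 ± 364 cpm per kb (SD, n = 5). The 4 passed with the mouse as a block in both tools and in all 10 fits that left out 1 library.

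Peptidases that break the peptides down at the cell surface and inside cells showed the other direction. Of 9, all tested, 4 were lower and none higher in edgeR, against 8.79% and 13.9% of all genes tested. Their median log2 fold change was -1.29. At an unadjusted p under 0.05, 7 were lower and 1 higher, Ece1, which DESeq2 calls higher and limma-voom does not. The share of all genes at that unadjusted p was not counted, so these counts are a description only. Enpep and Anpep, aminopeptidases of the enterocyte brush border, had log2 fold changes of -2.67 (adjusted p = 0.00964) and -2.65 (adjusted p = 0.00497), Dpp4, which clips incretins and neuropeptide Y, -1.29 (adjusted p = 0.00258), and Nln, neurolysin, -0.90 (adjusted p = 0.00135). With the mouse as a block in edgeR 2 passed, Enpep and Anpep, in limma-voom 6 did, with Mme and Ace beside these 4, and with 1 library left out between 1 and 5 did, fewest without the GUCY2Cmed library of mouse 15. Enpep passed only without the GUCY2Chi library of mouse 12 or 15, Anpep only without those or the GUCY2Cmed library of mouse 7, and Dpp4 in 9 of 10 such fits, missing without the GUCY2Cmed library of mouse 15. The enterocyte sum moved the same way, at 2203 to 25680 cpm in GUCY2Chi libraries against 44870 to 62160 cpm, and its part in these 4 genes was not tested.

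**Figure D4:**
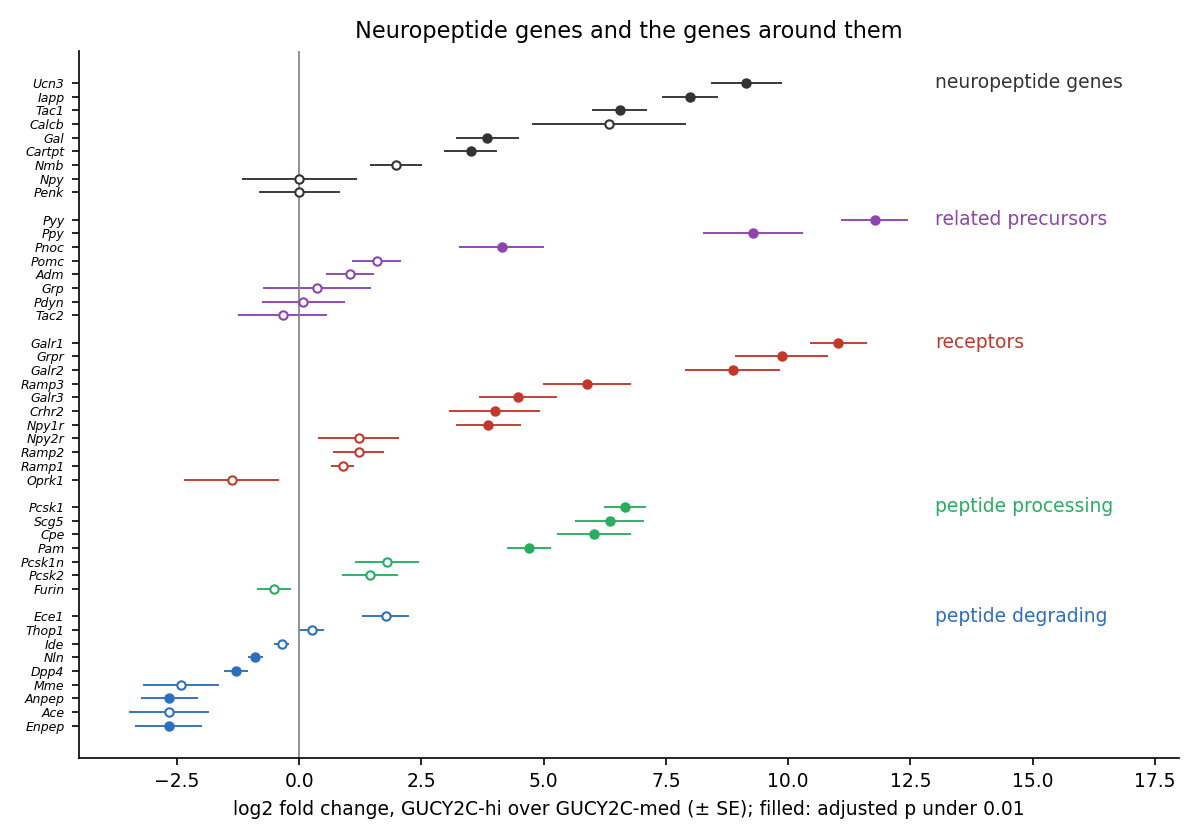
Fitted log2 fold change, GUCY2Chi over GUCY2Cmed, with its standard error, of every tested neuropeptide gene and of every tested gene of the 4 related lists; filled symbols have an adjusted p under 0.01 in edgeR. The filled peptidases lie left of 0 and all other filled genes lie right of it; Calcb, Ppy, Grpr and Galr2, at 0 in all GUCY2Cmed libraries, have fitted values that are no bounds.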

How the data were processed

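The 10 libraries were grouped by their labels, which give the same numbers in both groups. Cells of each of 5 mice were sorted into both groups, and the numbers were taken as those of the mice. Deviations from the group means correlated between same-numbered libraries at -0.17 to 0.27, so the pairing rests on the sort and not on the data. The authors deposited unnormalized counts of reads for each gene, which the sequencing provider made after alignment with STAR. The deposited FPKM are the same provider's counts scaled to gene length and library size, and the lengths they imply differ from those listed in the same table. The labels name the build mm9, but all 10 genes lie where RefSeq places them on GRCm38, so positions are given on that build. Columns and files with the authors' fold changes and p-values were not used. The counter and its strand setting are not given in the sources used here, and overlapping or antisense genes could share reads.

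Counts of the 15703 genes above 0.5 cpm in 3 or more libraries were fitted with edgeR 4.0.16 (TMM factors, quasi-likelihood test, no mouse term) in R 4.3.3, with the filter, packages and threshold of 0.01 that the study's methods name. The submitters' processing notes list edgeR 3.26.8 and limma 3.40.6. The common biological coefficient of variation was 0.458. Alternatives were the mouse as a replicate block, limma-voom 3.58.1, DESeq2 1.42.0, other scalings and filters, a forebrain marker covariate, a threshold of 0.05 and left-out libraries. Calca was compared by an exact permutation test on log2(cpm + 0.5). Lower bounds of folds used 3 counts over the group. Python 3.11.15 (pandas 2.3.3, scipy 1.17.1, matplotlib 3.10.9) served for tables and plots. Intervals and floors cover counting error only. P-values set the group difference against the spread between these libraries, in the main fit without a term for the mouse.

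The 10 genes, the related lists and the marker lists were chosen with earlier results of these data known. Named genes are the 10, in each related list those past the threshold (at most 8 by size of change) with the 2 highest per length, and the 3 nearest profiles of each gene that rose. Results for some genes under these rules, and sums that rest on them, are not reported here. Cleavage sites in the proteins were not analysed here.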

Additional observations from a re-analysis of the deposited data

Results flagged for a closer look

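Of 54 sets of 5 libraries checked, 1 gene in 1 group each, 6 held a library whose gap to its nearest neighbour exceeded Dixon's 95% critical value, and chance gives about 1 in 20. Of these, 3 were single low readings in GUCY2Cmed cells where the other libraries had 0 counts: Calca at 0.0856 cpm in mouse 15, Galr1 at 0.072 cpm in mouse 12 and Crhr2 at 0.187 cpm in mouse 2, from 1 or 2 counts each. The other 3 were low values in the GUCY2Cmed library of mouse 7, Cpe at 7.79 cpm (the others 61.5 to 138 cpm), Pam at 0.963 cpm (the others 4.21 to 5.41 cpm) and Ramp1 at 15.6 cpm (the others 22.8 to 24.9 cpm). That library also had the lowest forebrain neuron sum (12.7 cpm) and the lowest Penk and Cartpt of its group. The part of forebrain RNA in these 3 values was not tested.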

How the results depend on the processing

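The 5 calls among the neuropeptide genes numbered 4 without mice 12 and 15 (Gal lost), 6 with limma-voom, library size only or the forebrain covariate, 7 with DESeq2 or a threshold of 0.05, and 5 or 6 with 1 library left out. With at least 10 counts in every library, 1 of the 10 genes, 1 related precursor and 1 receptor could be tested, and 1, 0 and 1 were higher. The mouse as a replicate block in edgeR left 5 neuropeptide genes, 4 of 7 receptors and 2 of 4 lowered peptidases, and lost Pnoc. In limma-voom the block left 5, 7 and 6, with Pnoc kept. Peptidases higher numbered 1 in place of 0 (Ece1) with DESeq2, library size only, no filter, at least 10 counts, without mice 12 and 15 and at a threshold of 0.05, and 0 to 1 with 1 library left out, whereas those lower ranged from 1 to 5. The cause of these changes was not tested. Library size alone moved the median log2 fold change of all genes from 0.09 to 0.39. With FPKM, the ratio per length was 5.32 for Tac1 to Ucn3 and 1.07 for Ucn3 to Iapp.

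Penk and Npy, at 0.00 and 0.01, changed sign without passing: -0.26 and -0.81 with the block in edgeR, -0.076 and -0.077 with the block in limma-voom, -0.035 and -0.94 with limma-voom, -1.25 and -1.14 without mice 12 and 15, and -0.39 for Npy with the covariate. With 1 library left out they ranged from -1.01 to 0.36 and from -0.91 to 0.48. Depth limits Gal, Nmb, Calca, Calcb and Npy, each read at under 5 cpm in every library.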
